A study of Caenorhabditis elegans with 15 samples.

Results

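The genes described here are the 5 Caenorhabditis elegans paralogs of the cap-binding translation factor eIF4E (ife-1 to ife-5) and 4 genes for proteins that work with eIF4E at the ends of mRNAs (ifg-1, ifet-1, pab-1 and pab-2). They were chosen by name and WormBase ID, not by a rule on measured values, although earlier results of these data were known. They make up 9 of the 46934 genes listed in the study's table. All 9 reached at least 1 TPM (a relative abundance of transcripts, corrected for their length, that sums to the same total in every library) in at least 3 libraries, as did 14308 genes in all. The genes of the 2 tagged proteins, ife-1 and ife-3, are among them, so what follows concerns the mRNAs that encode the bait proteins as well as those of their relatives and partners.

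An eIF4E protein binds the 5' cap of an mRNA and, through the scaffold eIF4G, brings it to the ribosome. Poly(A)-binding protein holds the other end and touches eIF4G, while the eIF4E transporter (4E-T) binds eIF4E in place of eIF4G and keeps mRNAs repressed, especially in oocytes. Worms make several eIF4E paralogs. IFE-1, IFE-2 and IFE-5 accept the trimethylated cap that trans-splicing gives to many worm mRNAs besides the usual monomethylated cap, whereas IFE-3 and IFE-4 prefer the monomethylated cap in binding assays. IFE-1 is found in germ granules and is needed for sperm maturation, and IFE-3 is the paralog closest to the main eIF4E of mammals.

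RNA came from whole worms of 3 strains grown for 3 days at 20 °C. Strain KX155 carries CRISPR-made tags at the genes themselves, mKate::ife-1 on chromosome III and GFP::ife-3 on chromosome V. RNA bound to mKate::IFE-1 on RFP trap beads (IFE-1 RIP), RNA bound to GFP::IFE-3 on GFP trap beads (IFE-3 RIP) and total RNA of the lysate were all taken from it. Strain LP307 (mKate::PH, inserted on chromosome II) gave the mKate control RIP and strain LP306 (GFP::PH, inserted on chromosome II) the GFP control RIP; neither carries a tagged eIF4E. Each of the 5 groups held 3 libraries that the labels call biological replicates. Every group is from a single strain, and the controls have no total RNA of their own, so a difference between a RIP and its control cannot be told apart from a difference between strains. The bead type or lysate, taken here as the batch, is the same as the group, with the exception of each RIP and the control taken on the same beads. Worms were ground whole, so fewer cells of a type and less RNA per cell cannot be told apart, and tissue markers were not analysed here because the gene table used pairs no symbols with WormBase IDs.

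Libraries were put on a common scale by the median ratio of their genes, with multipliers from 0.734 to 1.40, and levels below are these scaled TPM values. The 3 libraries of GFP control RIP were the least alike, with median Spearman correlations across genes to their group mates from 0.814 to 0.821, against 0.894 to 0.931 in the other groups. TPM holds no sequencing depth, so depth is unknown and no detection limit could be given. None of the 9 genes had values identical to those of another gene.

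In WBcel235 coordinates from RefSeq, in which every one of the 9 is annotated as protein-coding, ife-1 (WBGene00002059) lies at III:13343417-13344618 with 2 RefSeq transcripts, ife-2 (WBGene00002060) at X:381385-382709, ife-3 (WBGene00002061) at V:6584-7829 with 3 transcripts, ife-4 (WBGene00002062) at X:1104212-1106246 and ife-5 (WBGene00002063) at II:12280660-12284139. Of the partners, ifg-1 (WBGene00002066) lies at II:8217222-8222396 with 5 transcripts, ifet-1 (WBGene00004132) at III:4471403-4475150, pab-1 (WBGene00003902) at I:10432861-10435238 and pab-2 (WBGene00003903) at X:13522262-13525823. These are whole gene spans, introns included. Values are sums over a gene, so isoforms, such as those of ifg-1, were not separated.

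In total RNA the most abundant of these mRNAs was pab-1, the major poly(A)-binding protein gene, at 185 ± 5.01 scaled TPM (SD, n = 3). Among the eIF4E genes, ife-3 was the highest at 110 ± 12.2 and ife-1 followed at 60.7 ± 4.05 (SD, n = 3 each). The mRNA of the 4E-T ortholog ifet-1 lay between them at 72.0 ± 6.08 (SD, n = 3). Levels of pab-2, a second poly(A)-binding protein gene, and of the eIF4G gene ifg-1 were lower, at 25.6 ± 1.52 and 18.8 ± 1.39 (SD, n = 3 each). The remaining paralogs were ife-2 at 8.79 ± 1.20, ife-4 at 2.57 ± 0.678 and ife-5 at 1.93 ± 0.573 (SD, n = 3 each). Neighbours in this order did not overlap between libraries, except ife-4 and ife-5.

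The order was not the same in the pull-downs. In both IFE RIPs ifet-1 stood above ife-3, with overlapping libraries in IFE-1 RIP (50.0 ± 6.27 and 47.7 ± 3.54) and without overlap in IFE-3 RIP (70.0 ± 4.31 and 51.6 ± 6.59; SD, n = 3 each). In both control RIPs ife-1 stood above ife-3, with 36.6 ± 4.86 and 27.5 ± 5.56 in mKate control RIP and, for GFP control RIP, 42.9 ± 12.4 and 35.5 ± 9.48 (SD, n = 3 each), although libraries overlapped in both. In mKate control RIP pab-2 lay between them. In every group pab-1 was the highest of the 9 without overlap, and ife-4 and ife-5 were the lowest.

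**Figure D1:**
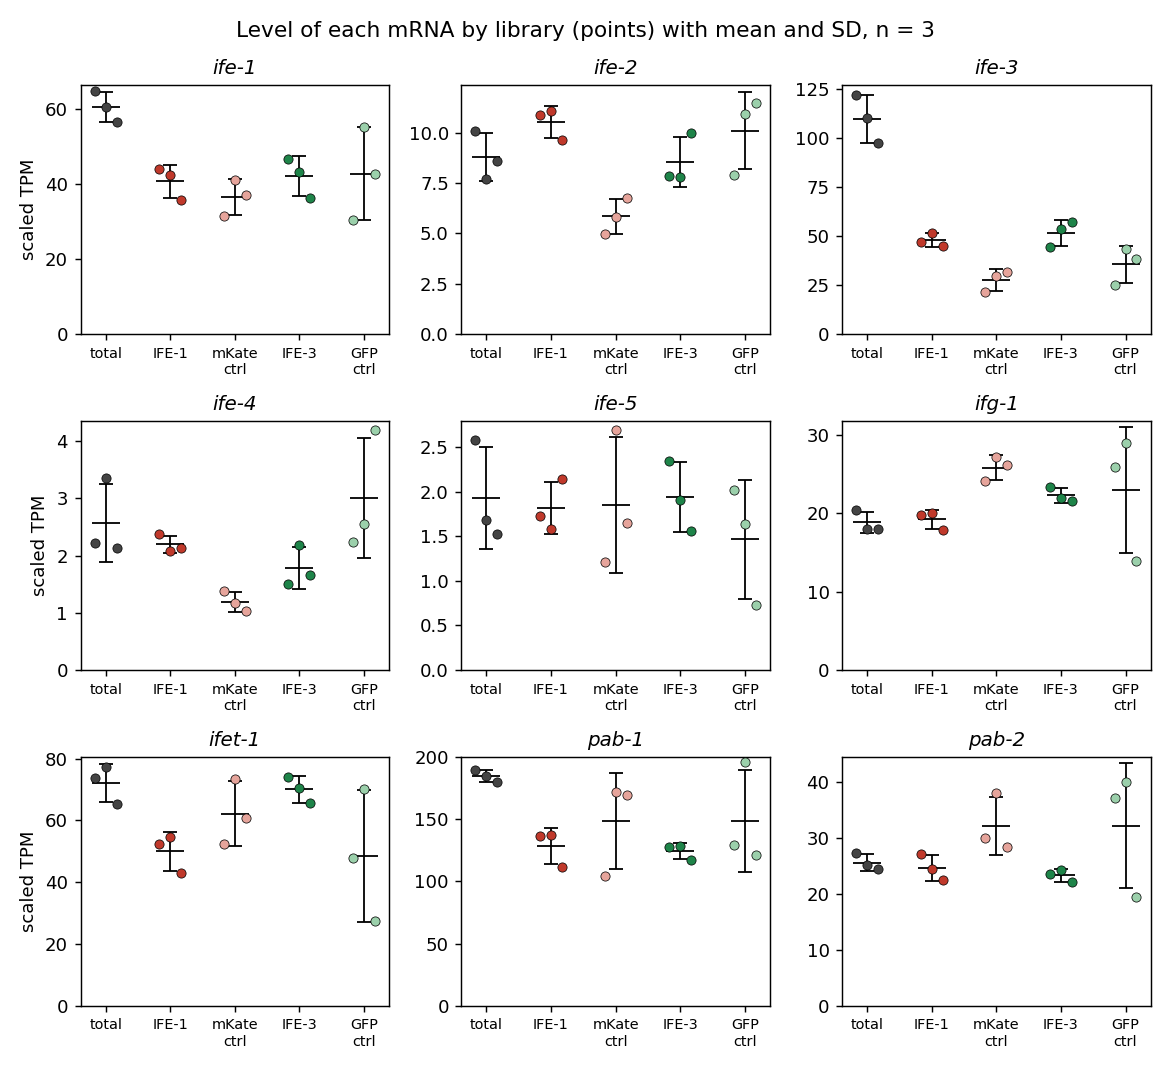
Scaled TPM (linear axis from 0) of each of the 9 mRNAs in total RNA, the IFE-1 and IFE-3 RIPs and their control RIPs (ctrl), with 1 point per library and the mean and SD of 3 libraries. The ife-3 mRNA lies between 97.3 and 122 in total RNA and at or under 56.9 in every pull-down library, the controls included.

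The ife-3 mRNA, which encodes the GFP-tagged bait, was the clearest case. It stood at 122, 110 and 97.3 scaled TPM in replicates 1, 2 and 3 of total RNA. The IFE-1 RIP libraries held 46.8, 51.6 and 44.7 and the IFE-3 RIP libraries 44.2, 53.6 and 56.9. The control libraries were lower again, with 21.2, 29.4 and 31.9 in mKate control RIP and 25.0, 43.4 and 38.1 in GFP control RIP. Total RNA thus lay above all 12 pull-down libraries, and each IFE RIP lay above its own control without overlap.

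Against total RNA the ife-3 mRNA fell in IFE-1 RIP by 1.18 ± 0.13 (SE) on the log2(scaled TPM + 1) scale (2.27-fold lower, limma adjusted p = 0.00284). In IFE-3 RIP, the pull-down of its own protein, it fell by 1.07 ± 0.13 (SE; 2.09-fold lower, limma adjusted p = 0.00501). Among the 3418 genes tested that averaged 10 scaled TPM or more, it had the 30th lowest fold change in IFE-1 RIP and the 47th lowest in IFE-3 RIP. Against the control RIPs ife-3 was less extreme. It had the 571st highest fold change of 3280 such genes in IFE-1 RIP and the 670th highest of 3450 in IFE-3 RIP. Both calls against total RNA held in all 15 alternative fits of each comparison, with adjusted p from 0.0013 to 0.0197 and from 0.00209 to 0.0296.

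The ife-3 mRNA was lower than total RNA in the control RIPs too, a comparison added after the data were seen and made between strains. The log2 fold change was -1.97 ± 0.25 SE for mKate control RIP (limma adjusted p = 0.0161) and -1.64 ± 0.25 SE for GFP control RIP (limma adjusted p = 0.0211). It was the single member of the 9 called in either comparison, where 1.17% and 1.04% of all genes were called, and 0.614% and 0.63% of all genes were called lower than total RNA. These calls were lost when any total RNA replicate, or replicate 1 of the control in question, was left out, and that for mKate control RIP also without its replicate 2. The adjusted p then lay between 0.0546 and 0.112, at fold changes from -2.06 to -1.40.

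The comparison of the IFE RIPs with total RNA was made for all 9 mRNAs to see which of them stood above or below their level in the lysate. Of the 9, 4 were called in IFE-1 RIP against total RNA at a limma adjusted p under 0.05, all of them lower: ife-1, ife-3, ifet-1 and pab-1. Across all 12099 genes tested 10.2% were called, 6.07% as lower. In IFE-3 RIP against total RNA 3 were called, again all lower: ife-1, ife-3 and pab-1, with 11.2% of all genes called and 5.63% called lower. Calls of a higher level made up 40.4% of all calls for IFE-1 RIP and 88.1% with TPM as deposited, and 49.8% and 94.2% for IFE-3 RIP, so the direction of calls over all genes depends on the scaling. The share of all genes called also depends on the filter. Of the 5965 genes passing a filter at 5 TPM, which leaves out ife-4 and ife-5, 22.8% were called for IFE-1 RIP and 24.2% for IFE-3 RIP. The same 4 and 3 members were called there. The median log2 fold change of the 9 was -0.14 in IFE-1 RIP and -0.12 for the other bait, IFE-3, against -0.01 and 0.03 for all genes tested. Both comparisons use the same total RNA libraries, so their results are not independent.

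The mRNA of the mKate-tagged bait, ife-1, stood at 64.8, 60.6 and 56.7 scaled TPM in total RNA. The IFE-1 RIP libraries held 44.2, 42.5 and 35.8, and those of IFE-3 RIP 46.8, 43.4 and 36.4. All 6 of these RIP libraries lay below all 3 of total RNA. The fold change was -0.57 ± 0.13 SE in the pull-down of its own protein (1.48-fold lower, limma adjusted p = 0.0289) and -0.51 ± 0.13 SE in IFE-3 RIP (1.42-fold lower, limma adjusted p = 0.0411).

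The major poly(A)-binding protein gene pab-1 moved by a like amount. It stood at 190, 185 and 180 scaled TPM in total RNA, 136, 137 and 111 in IFE-1 RIP, and 128, 129 and 117 in IFE-3 RIP, with no overlap between total RNA and either RIP. Its log2 fold change was -0.53 ± 0.12 SE in IFE-1 RIP (limma adjusted p = 0.0241) and -0.56 ± 0.12 SE in IFE-3 RIP (limma adjusted p = 0.0212). The control RIPs were spread from 104 to 172 in mKate control RIP and from 121 to 196 in GFP control RIP, and the latter overlapped total RNA.

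Among the 3418 genes averaging 10 scaled TPM or more, ife-1 had the 332nd lowest fold change in IFE-1 RIP against total RNA. There pab-1 had the 395th lowest and ifet-1 the 412th lowest. In IFE-3 RIP ife-1 had the 356th lowest and pab-1 the 286th lowest. The calls of ife-1 and pab-1 were close to the threshold. For IFE-1 RIP each was kept in 8 of 15 alternative fits. For IFE-3 RIP that of ife-1 was kept in 5 and that of pab-1 in 9, and no sign changed. Leaving out total RNA replicate 1, 2 or 3 ended all 4 calls (adjusted p from 0.0516 to 0.131), and so did leaving out IFE-1 RIP replicate 3 or IFE-3 RIP replicate 2 for the RIP concerned (0.0561 to 0.105). The ife-1 call was lost also without replicate 2 of IFE-1 RIP (0.0603) and without replicate 1 or 3 of IFE-3 RIP (0.0546 and 0.0742). With TPM as deposited, which put the median of all genes at 0.21 for IFE-1 RIP and 0.27 for the IFE-3 bait, the fold changes were -0.28 and -0.19 for ife-1 and -0.24 and -0.23 for pab-1, and none of these passed (adjusted p from 0.179 to 0.333).

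Of the partner mRNAs, ifet-1, which encodes the translational repressor that binds eIF4E, was separate between the RIPs in every library. It stood at 73.6, 77.1 and 65.3 scaled TPM in total RNA and at nearly the same level in IFE-3 RIP, with 74.0, 70.6 and 65.5. In IFE-1 RIP it stood at 52.5, 54.7 and 42.9, so each IFE-1 RIP library lay below each library of the other 2 groups. Against total RNA its log2 fold change was -0.52 ± 0.13 SE in IFE-1 RIP (1.44-fold lower, limma adjusted p = 0.0332) and -0.03 ± 0.13 SE in IFE-3 RIP (95% interval from -0.31 to 0.26, limma adjusted p = 0.914), the latter turning above 0 with TPM as deposited (0.30).

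The difference itself, IFE-1 RIP against IFE-3 RIP, was -0.49 ± 0.13 SE for ifet-1 (95% interval from -0.78 to -0.21) and did not pass the test across all genes (limma adjusted p = 0.0899). The replicate number was also used as a block, a pairing of these RIPs taken from the same data and not from the labels. The same fold change then had an SE of 0.08 and passed (limma adjusted p = 0.0349). Under the other alternatives of this comparison it stayed above the threshold, with fold changes from -0.56 to -0.38 and adjusted p up to 0.618. The call of ifet-1 in IFE-1 RIP against total RNA was kept in 6 of 15 alternative fits. It was lost without IFE-1 RIP replicate 1 or 3 and without total RNA replicate 1 or 2 (adjusted p from 0.0604 to 0.11), with TPM as deposited (fold change -0.24, adjusted p = 0.201), after quantile normalization (0.07) and in other fits (0.0501 to 0.359).

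In the control RIPs ifet-1 varied more than in the IFE RIPs. It stood at 52.4, 73.4 and 60.6 scaled TPM in mKate control RIP and at 47.7, 70.2 and 27.6 in GFP control RIP. Replicate 3 of the latter was the lowest of all 15 libraries for ifet-1, ife-5, ifg-1 and pab-2. Against GFP control RIP the log2 fold change of ifet-1 in IFE-3 RIP was 0.62 ± 0.35 SE (limma adjusted p = 0.556), and without that replicate it was 0.26. For IFE-1 RIP, ifet-1 overlapped mKate control RIP between libraries and was not called against it (limma adjusted p = 0.313).

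**Figure D2:**
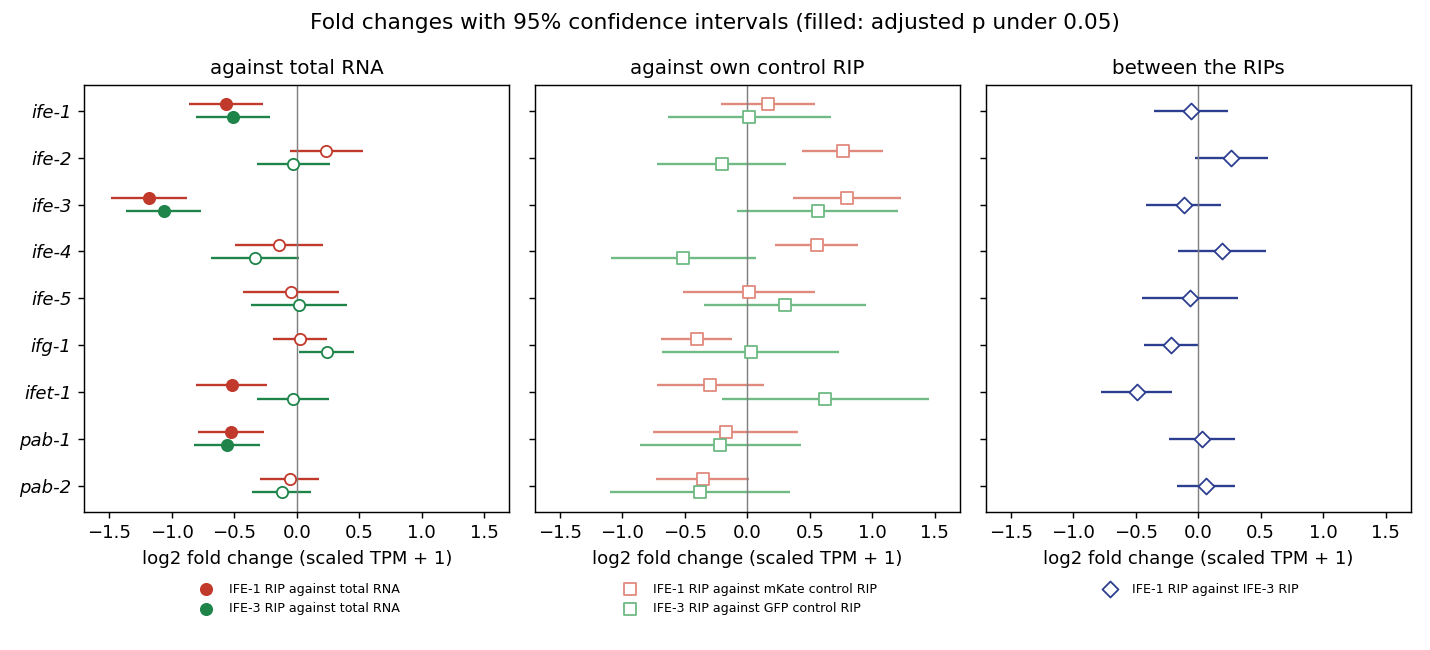
Log2 fold changes on the log2(scaled TPM + 1) scale with 95% confidence intervals from limma, for each mRNA in the RIPs against total RNA (left), against their own control RIPs (middle) and against each other (right); filled symbols have an adjusted p under 0.05. The filled symbols are ife-1, ife-3 and pab-1 for both RIPs and ifet-1 for IFE-1 RIP, all on the left and all below 0.

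The eIF4G scaffold gene ifg-1 was not called lower than total RNA in any pull-down. It ranged from 18.0 to 20.4 scaled TPM in total RNA, from 17.8 to 20.1 in IFE-1 RIP, from 21.6 to 23.3 in IFE-3 RIP and from 24.1 to 27.2 in mKate control RIP. The GFP control libraries held 25.9, 29.0 and 13.9. IFE-3 RIP lay above total RNA and above IFE-1 RIP without overlap, but neither difference passed the test. Set against total RNA, the log2 fold change was 0.24 ± 0.10 SE (limma adjusted p = 0.149). Between the RIPs the fold change of ifg-1 was -0.21 ± 0.10 SE (IFE-1 RIP against IFE-3 RIP, limma adjusted p = 0.311). With TPM as deposited the higher level of ifg-1 in IFE-3 RIP against total RNA was called (log2 fold change 0.55, adjusted p = 0.0133), a shift of which 0.27 was common to the median gene.

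The second poly(A)-binding protein gene, pab-2, ranged from 24.4 to 27.3 scaled TPM in total RNA, from 22.4 to 27.1 in IFE-1 RIP and from 22.1 to 24.2 in IFE-3 RIP. It did not pass the test in either RIP against total RNA. In mKate control RIP it lay between 28.4 and 37.9, above every IFE-1 RIP library, with a log2 fold change of -0.36 ± 0.16 SE for IFE-1 RIP against that control (limma adjusted p = 0.194).

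The low paralogs did not pass in either RIP against total RNA. The gene ife-2, a paralog studied mostly in the soma, stood at 10.1, 7.70 and 8.61 scaled TPM in total RNA, 10.9, 11.1 and 9.62 in IFE-1 RIP, and 7.84, 7.83 and 9.99 in IFE-3 RIP. Its log2 fold change of 0.24 ± 0.13 SE in IFE-1 RIP was the highest of the 9 in that comparison (limma adjusted p = 0.284). The gene ife-4, which encodes the relative of the mammalian 4E homologous protein, was at 2.23, 3.35 and 2.13 in total RNA. Its IFE-1 RIP libraries stood at 2.37, 2.08 and 2.14 and its IFE-3 RIP libraries at 1.50, 2.19 and 1.65, overlapping total RNA in both. The log2 fold changes were -0.14 ± 0.16 SE, which became 0.06 with TPM as deposited, and -0.33 ± 0.16 SE (limma adjusted p = 0.618 and 0.211). The germline paralog gene ife-5 overlapped between all 5 groups, with a range over the 15 libraries from 0.73 to 2.70. At these low levels the added 1 on the log scale shrinks fold changes, and the filter at 5 TPM leaves ife-4 and ife-5 out.

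The RIPs were set against each other to see whether their levels of these mRNAs differed. None of the 9 was called in IFE-1 RIP against IFE-3 RIP with limma, where 1.52% of all genes were called. Of the 9, ifet-1 alone had an unadjusted limma p under 0.05, as did 2010 of all 12099 genes tested. The ifet-1 mRNA was also the 1 member called when replicates were blocked, against 4.4% of all genes. The ife-1 mRNA had a log2 fold change of -0.06 ± 0.13 SE (95% interval from -0.35 to 0.24), and the ife-3 mRNA one of -0.12 ± 0.13 SE (95% interval from -0.42 to 0.19). For ife-2 the fold change was 0.26 ± 0.13 SE (95% interval from -0.03 to 0.56, limma adjusted p = 0.354).

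To compare each RIP with what beads of the same type held in worms without a tagged eIF4E, the RIPs were set against their control RIPs. In IFE-1 RIP against mKate control RIP none of the 9 was called with limma (0.474% of all genes were). The unadjusted limma p was under 0.05 for 4 of them, ife-2, ife-3, ife-4 and ifg-1, and for 3357 of all 12238 genes tested. When replicates were blocked, a pairing taken from the same data, 2 of the 9 were called, ife-2 and ife-3, against 12.7% of all genes.

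The ife-2 mRNA stood at 4.99, 5.81 and 6.75 scaled TPM in mKate control RIP, below every library of the other 4 groups. Its log2 fold change in IFE-1 RIP was 0.76 ± 0.13 SE (limma adjusted p = 0.055, and 0.0413 with the block). For ife-3, whose values are given above, it was 0.80 ± 0.18 SE (limma adjusted p = 0.0788, and 0.0449 with the block). For ife-4, at 1.38, 1.16 and 1.04 in mKate control RIP, it was 0.55 ± 0.14 SE (limma adjusted p = 0.0877, and 0.0588 with the block). The ifg-1 mRNA went the other way, with -0.41 ± 0.12 SE (limma adjusted p = 0.106). Without mKate control RIP replicate 3, ife-2 and ife-3 passed also without a block (limma adjusted p = 0.0363 and 0.0409). That fit called 12.7% of all genes tested, against at most 0.00851% with any other library left out. The bait's own mRNA, ife-1, stood at 31.4, 41.1 and 37.2 in mKate control RIP. Its fold change of 0.16 ± 0.16 SE (95% interval from -0.21 to 0.54, limma adjusted p = 0.523) became -0.11 with TPM as deposited and -0.17 after quantile normalization.

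In IFE-3 RIP against GFP control RIP none of the 9 was called with limma, with or without the block. Of all genes 0.0898% were called, and 1.15% with the block. None of the 9 had an unadjusted limma p under 0.05, against 1534 of all 12249 genes tested. The bait's own mRNA, ife-3, lay above its control in every library, with a log2 fold change of 0.56 ± 0.27 SE (95% interval from -0.08 to 1.21, limma adjusted p = 0.48). It was 0.32 without GFP control RIP replicate 1, the lowest control library, and 0.19 with TPM as deposited. The ife-1 mRNA, at 30.5, 55.4 and 42.8 in GFP control RIP, did not differ beyond this spread (0.02 ± 0.28 SE, 95% interval from -0.64 to 0.67, limma adjusted p = 0.991, and -0.36 with TPM as deposited). The ife-4 mRNA lay below GFP control RIP (2.24, 2.56 and 4.20) in every library of IFE-3 RIP, with -0.51 ± 0.25 SE (limma adjusted p = 0.469).

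The difference from the control RIP was then compared between the paralogs in a fit of 12 libraries. None of the 9 passed with limma (0.319% of all genes did). An unadjusted limma p under 0.05 was found for 2375 of all 14114 genes tested and for 3 of the 9. These were ife-4, with a log2 difference of 1.07 ± 0.26 SE higher on the IFE-1 side (limma adjusted p = 0.105), ife-2, with 0.98 ± 0.24 SE in the same direction (limma adjusted p = 0.109), and ifet-1, with -0.91 ± 0.41 SE (limma adjusted p = 0.293). When replicates were blocked ife-2 passed (limma adjusted p = 0.0311) and ife-4 did not (0.0512), while 6.54% of all genes were called. The numbers were taken to pair both RIPs with their own controls. However, IFE-3 RIP and mKate control RIP had 1 pair of libraries with a correlation of 0.0733, so the pairing of all 4 groups is uncertain. For ife-2 and ife-4 the IFE RIPs themselves overlapped, and mKate control RIP was lower than GFP control RIP without overlap, at 5.85 ± 0.880 and 10.1 ± 1.92 scaled TPM for ife-2 and at 1.19 ± 0.176 and 3.00 ± 1.05 for ife-4 (SD, n = 3 each).

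The controls could also be set against total RNA for the other paralogs. For mKate control RIP the log2 fold changes were -0.72 ± 0.23 SE for ife-1, -0.52 ± 0.18 SE for ife-2 and -0.70 ± 0.22 SE for ife-4, with no overlap between libraries, and none passed (limma adjusted p from 0.127 to 0.162). The ife-5 mRNA overlapped. Of the partners, pab-1 also lay below total RNA without overlap, ifg-1 and pab-2 lay above it without overlap, and none of these passed. For GFP control RIP the ife-1 mRNA had a fold change of -0.53 ± 0.23 SE (limma adjusted p = 0.261), and with TPM as deposited it was 0.17.

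Ratios between mRNAs of the same library do not depend on the scaling, so they were used as a second view of these differences. In total RNA ife-3 made up 59.7 ± 1.02% of the summed TPM of the 5 eIF4E genes and ife-1 33.1 ± 0.967% (SD, n = 3 each). In IFE-1 RIP the shares were 46.3 ± 1.88% and 39.5 ± 1.96%, and in IFE-3 RIP 48.6 ± 5.24% and 39.9 ± 5.72% (SD, n = 3 each). In the controls ife-1 led, with 50.3 ± 2.53% against 37.5 ± 2.77% for ife-3 in mKate control RIP and 45.9 ± 2.43% against 38.0 ± 1.12% in GFP control RIP (SD over 3 libraries). The share of ife-3 was highest in total RNA, intermediate in the IFE RIPs and lowest in the controls, with no overlap between these 3 kinds of library. The share of ife-2 was lowest in total RNA, at 4.79 ± 0.523% against at least 7.18% in every pull-down library.

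The ratio of ife-3 to ife-1 was 1.88, 1.82 and 1.71 in replicates 1, 2 and 3 of total RNA. It was 1.06, 1.21 and 1.25 in IFE-1 RIP and 0.944, 1.23 and 1.57 in IFE-3 RIP. In mKate control RIP it was 0.676, 0.716 and 0.857, and in GFP control RIP 0.819, 0.783 and 0.890. The ife-3 mRNA thus exceeded that of ife-1 in all 3 total RNA libraries, in 5 of 6 IFE RIP libraries and in none of the 6 control libraries. The control libraries are of other strains, in which neither gene is tagged. No test was made of these ratios, since exact permutation of 3 against 3 libraries cannot give a p under 0.1.

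**Figure D3:**
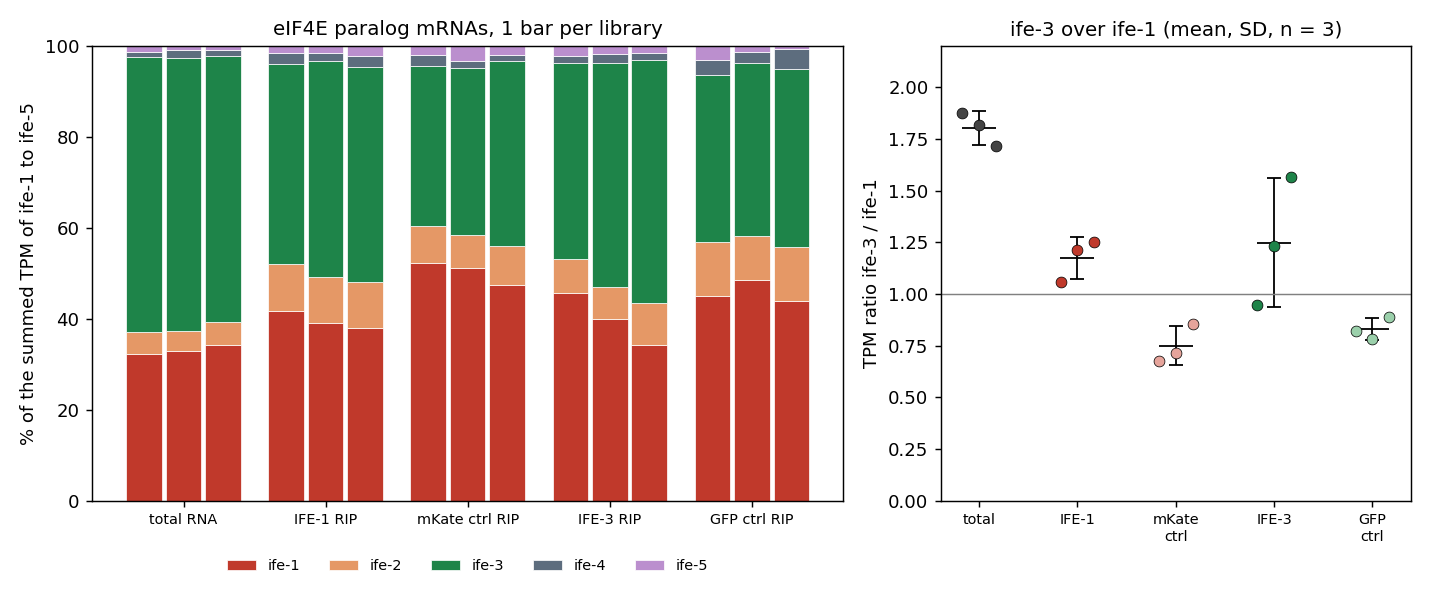
Left, the share (%) of each paralog in the summed TPM of ife-1 to ife-5, with 1 bar per library in the order of replicates 1 to 3; right, the TPM ratio of ife-3 to ife-1 by library, with the mean and SD of 3 libraries. The ratio is at least 1.71 in total RNA, from 0.944 to 1.57 in the IFE RIPs and at most 0.890 in the control RIPs.

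Other ratios within a library also set total RNA apart from every pull-down library, but GFP control RIP overlapped the IFE RIPs in them. The ratios with the summed eIF4E mRNAs and with ifet-1 contain ife-3, so they are not independent of the ratio above. The summed eIF4E mRNAs were 9.76 ± 0.492 times the TPM of the eIF4G gene ifg-1 in total RNA, 5.37 ± 0.0618 times in IFE-1 RIP and 4.77 ± 0.317 times in IFE-3 RIP (SD, n = 3 each). In mKate control RIP the value was 2.82 ± 0.272, and in GFP control RIP it was 4.51 ± 2.25 (SD, n = 3 each), with replicate 3 the highest. The ratio of pab-1 to pab-2 was 7.23 ± 0.240 in total RNA. It was 5.21 ± 0.355 for IFE-1 RIP and 5.35 ± 0.0691 for IFE-3 RIP, with 4.66 ± 1.25 and 4.87 ± 1.39 for the mKate and GFP controls (SD, n = 3 each). Total RNA lay above every pull-down library in both ratios. The ratio of ifet-1 to ife-3 was lowest in total RNA, at 0.659 ± 0.0487, and was 1.05 ± 0.0819 for IFE-1 RIP, 1.38 ± 0.268 for IFE-3 RIP, 1.42 ± 0.617 for GFP control RIP and 2.29 ± 0.335 for mKate control RIP (SD, n = 3 each).

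Over the 15 libraries some of the mRNAs varied together. Given as a description, on log2(scaled TPM + 1), the highest Pearson correlations among the 9 were 0.84 between the bait genes ife-1 and ife-3, 0.83 between ifg-1 and pab-2 and 0.76 between ife-1 and pab-1, and the lowest was -0.68 between ife-4 and ifg-1. Among 3299 other genes averaging 10 scaled TPM or more, the patterns most like that of ife-3 were those of WBGene00001840 (Pearson r = 0.97) and WBGene00002005 (r = 0.97). Both were highest in total RNA, at 153 ± 10.9 and 993 ± 69.8 scaled TPM, and lowest at 65.0 ± 5.48 and 354 ± 122 among the mKate control libraries (SD, n = 3 each). Those most like ife-1 were WBGene00019890 and WBGene00004501 (r = 0.95 each), at 27.1 ± 1.67 and 41.4 ± 3.75 in total RNA and 17.5 ± 1.23 and 30.5 ± 2.86 in IFE-1 RIP (SD, n = 3 each). These genes were chosen for their likeness, so their levels carry no test, and the points share the 5 groups and the scaling.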

How the data were processed

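The authors deposited 1 table of TPM per gene for 15 libraries, with columns named as in the labels. Per the submitters' processing notes kallisto 0.48.0, DESeq2 1.34.0, R 4.4.1 and WBcel235 were used, in no stated role. The annotation and filters were not given in the sources used here. Per the labels' protocols, libraries were rRNA-depleted and not strand-specific, so antisense RNA cannot be told apart. TPM keeps no depth, so no count model was used.

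Libraries were scaled by the median ratio to the genes' geometric means, within each fit for tests and over all 15 libraries for printed levels. A gene needed 1 TPM in 3 libraries of a fit. Log2(scaled TPM + 1) was then modelled by lmFit and moderated by eBayes along the mean-variance trend (limma 3.58.1, R 4.3.3; two-sided), with Benjamini-Hochberg adjustment over all genes tested and called meaning under 0.05. Total RNA and the IFE RIPs shared a fit of 9 libraries, each RIP and its control a fit of 6, the comparison of differences a fit of 12, and the controls with total RNA, added after the data were seen, a fit of 9. The script was tested on simulated data. Alternatives covered scaling, pseudocount, filter, libraries fitted, a replicate block and each library left out.

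The 9 genes, the fits and the named-gene rule (all members, with the 2 genes most like ife-1 and the 2 most like ife-3) were chosen with earlier results of these data known. Of 46926 RefSeq genes 0 carry a WormBase ID. Members were therefore named from the list that defined them and placed by symbol (9 of 9), and lists of other cap and poly(A) genes and tissue markers, fixed by symbol, were not analysed here.

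All groups share replicate numbers 1 to 3. Deviations of same-numbered libraries from their group means correlated across genes by 0.224, 0.149 and 0.396 between the IFE RIPs, by 0.168, 0.152 and 0.353 between IFE-1 RIP and its control, and by 0.191, 0.173 and 0.273 between IFE-3 RIP and its control, so the numbers were taken as pairing there, from the data and not the labels. Differently numbered libraries correlated by at most 0.107, 0.133 and 0.0862 in these comparisons, in the same order. All 3 same-numbered pairs were over 0.1 also between the controls and between IFE-1 RIP and GFP control RIP, which were not compared directly. Between IFE-3 RIP and mKate control RIP, and between total RNA and each other group, at least 1 pair was under 0.1 and no pairing was assumed. The pairs of total RNA with IFE-3 RIP (0.0552, 0.130 and 0.0981) were still all above the highest differently numbered pair (0.00241). So were those with GFP control RIP (0.0697, 0.157 and 0.143, against 0.0228). In the other cases under 0.1, at least 1 same-numbered pair lay below the highest differently numbered pair.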

Additional observations from a re-analysis of the deposited data

Results flagged for a closer look

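The difference of ife-4 from the control RIP of the same beads ran in opposite directions for the paralogs. Every IFE-1 RIP library lay above every mKate control library, and every IFE-3 RIP library lay below every GFP control library. The gene was flagged by this separation, and the share of all genes that show it was not counted. The highest IFE-3 RIP library held 2.19 scaled TPM, against 2.24 in the lowest GFP control library. Neither change passed by itself (limma adjusted p = 0.0877 and 0.469). The log2 difference between these changes was 1.07 ± 0.26 SE and did not pass the test across all genes (limma adjusted p = 0.105). The mRNA is low, at 1.04 to 4.20 scaled TPM over the 15 libraries, and GFP control RIP replicate 3 holds the highest value. The part of the control strains in this difference was not tested.

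The ifet-1 mRNA was lower against total RNA in IFE-1 RIP and not in IFE-3 RIP. The test of that difference, a log2 value of -0.49 ± 0.13 SE, gave a limma adjusted p of 0.0899, and 0.0349 with the replicate number as a block. The ifet-1 values of IFE-1 RIP overlapped those of mKate control RIP.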

How the results depend on the processing

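Of 72 combinations of gene and comparison, 9 were called, and those of ife-3 in both RIPs against total RNA held in every alternative run; the 9 held in 85 of 133 fits, with no change of sign. Of 36 combinations whose fold change is not given above, 22 changed sign in some alternative and 3 were called in 1, all in GFP control RIP against total RNA with TPM as deposited.

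Members called against total RNA numbered 4 for IFE-1 RIP and 3 for IFE-3 RIP. When all 15 libraries shared a fit they numbered 1 and 1, against 1.64% and 1.77% of all genes. For IFE-1 RIP they numbered 1 with TPM as deposited (10.6% of all genes) and 2 after quantile normalization (11.9%). With a library left out they ran from 1 to 3 for IFE-1 RIP, against 4.32% to 7.25% of all genes. For IFE-3 RIP they ran from 1 to 2, against 2.68% to 13.7%. For mKate control RIP against total RNA they ran from 0 to 1 (0.0156% to 6.11% of all genes), but numbered 3 with all 15 libraries (8.16%). For GFP control RIP they ran from 0 to 1 (0.199% to 8.95%), but numbered 4 with TPM as deposited (22.2%). Of those last calls over all genes 96.3% were higher, against 39.4% with the median-ratio scaling. For IFE-1 RIP against its control, 1 was called with a filter at 5 TPM (5.61% of all genes), 1 with all 15 libraries (1.13%) and 2 with the replicate block (12.7%). With a library left out 2 were called without mKate control RIP replicate 3 (12.7%) and 0 otherwise (at most 0.00851%). With the replicate block 1 was called between the RIPs (4.4%). In the comparison of differences 1 (ife-2) was called with the replicate block (limma adjusted p = 0.0311, 6.54% of all genes). With all 15 libraries 1 was called (2.21%). With a library left out 1 was called without GFP control RIP replicate 1 (0.933%) and 0 otherwise, against 0% to 2.08% of all genes. The block changed no other call.

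With TPM as deposited the sign turned for ife-4 in IFE-1 RIP against total RNA (0.0583), ifet-1 in IFE-3 RIP against total RNA (0.30, and 0.0183 after quantile normalization), and ife-1 in IFE-1 RIP against its control (-0.11, and -0.17 after quantile normalization), in IFE-3 RIP against its control (-0.36 and -0.18) and in GFP control RIP against total RNA (0.17). That scaling moved the median of all genes by -0.29 to 0.55. Leaving out libraries gave ranges across 0 for ife-4 in IFE-1 RIP against total RNA (-0.23 to 0.00064), ifet-1 in IFE-3 RIP against total RNA (-0.10 to 0.0228), ife-1 between the RIPs (-0.16 to 0.0380) and ife-1 in IFE-3 RIP against its control (-0.22 to 0.22). The causes were not tested. Unknown depth limits what can be said of ife-4 and ife-5.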
